A study of Mus musculus with 1778 samples.

Results

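The 32 genes described here are imprinted: H19, Igf2, Igf2r, Airn, Slc38a4, Cdkn1c, Phlda2, Kcnq1ot1, Peg3, Usp29, Zim1, Plagl1, Peg10, Sgce, Asb4, Mest, Nap1l5, Dlk1, Rtl1, Meg3, Rian, Mirg, Grb10, Snrpn, Ndn, Magel2, Peg12, Nnat, Gnas, Impact, Zdbf2 and Zrsr1. They were chosen by name from a list of imprinted loci, and all 32 were rows of the deposited table of 24920 genes. An imprinted gene is transcribed mainly from the copy inherited from one parent, because methylation laid down in the egg or the sperm is kept on one of the copies and shapes the activity of a whole domain. Many paternally expressed imprinted genes promote growth of the embryo and many maternally expressed ones restrain it. In the classical pair, Igf2 encodes a paternally expressed growth factor, H19 is a maternally expressed noncoding RNA that shares its enhancers, and the maternally expressed Igf2r encodes the receptor that removes the factor. From general knowledge, 21 of the genes are expressed from the paternal copy, 10 from the maternal copy, and Gnas from either according to the transcript. The mice were of 1 inbred strain and the counts add both copies, so parental origin was not measured.

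Single cells were sorted from Wnt1::Cre; Rosa26TdTomato embryos of the C57BL/6 strain at 4, 6, 8 and 10 somites and sequenced by Smart-Seq2, which reads whole transcripts without molecular identifiers. In these embryos Cre under Wnt1 control switches on a red fluorescent protein for good, so the label marks cells that once transcribed Wnt1 and their descendants, and all 4 stages carry both alleles. Of 1778 cells, 1728 passed the limits on reads and detected genes, 12.7% of them at 4 somites, 48.3% at 6, 13.1% at 8 and 25.8% at 10. The labels name no embryo or litter, each cell is a sample of its own, and whether the pools of a stage came from separate embryos is not known. Pools were therefore not taken as replicates and no test was made between stages or classes; their values are shown side by side. Intervals cover counting error only. There were 12 such pools on 8 plate numbers, the smallest of 12 cells and the largest with 21.9% of all kept cells. Levels are given in CPM, reads scaled to a common total over all genes except the spike-ins and Rn45s, which alone took 54.4% of reads and whose share ranged from 35.6% to 66.4% over the pools.

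Cells under the label "cranial neural crest" differed in their crest markers, and the classes used here do not decide which cells are crest. By the crest transcription factor Sox10 and the VEGF receptor gene Kdr, each with a threshold of 10 CPM, 35.4% of the kept cells were Sox10-positive and 7.18% Kdr-positive. A further 11.4% passed both thresholds and were left out of class comparisons, and 46.01% passed neither and are called other cells. The 8 crest markers summed to 1151 CPM in Sox10-positive cells, 1059 in cells past both thresholds and 63.8 in Sox2-positive other cells. All 8 were over 5 CPM in Sox10-positive cells and in those past both thresholds. Of the other cells, 73.1% were at 10 CPM or more for Sox2, a neural plate gene, 11.7% had less Sox2 but passed for the epithelial gene Epcam, and 15.2%, the remaining cells, passed for neither. All 10 endothelial markers were over 5 CPM in Kdr-positive cells, with a sum of 1424 CPM, against 4.78 CPM in other cells. Head mesoderm markers were also higher there, at 457.7 against 69.99 CPM for the sum of 10 genes.

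Some libraries stood apart. In 12.6% of the kept libraries 9000 or more genes were detected, and 70.5% of these lay in the outer wells of the plate against 13.2% of the other 1511. Among them 94.01% had Sox10, 49.3% Kdr and 77.9% Sox2 at 10 CPM or more, against 40.04%, 14.2% and 50.03% of the others. They made up 53.3% of the cells past both thresholds, 16.2% of the Sox10-positive, 1.61% of the Kdr-positive and 1.38% of the other cells. They were over 50% of 4 pools: the pool of 22 cells at 6 somites, that of 15 at 8, and those of 55 and 12 at 10. Embryonic globin, Hba-x or Hbb-bh1 at 100 CPM or more, was found in 22 wells of the plate shared by 6, 8 and 10 somites, 12 at 6 and 10 at 8 somites, and 20 of them were among the libraries of 9000 or more genes. Whether more than 1 cell was in these wells was not tested. Calls that ended without the libraries of 9000 or more genes or without the globin wells are named beside the results.

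The start regions of genes whose values carry the results below are shown for reference. RefSeq promoters (GRCm38.p6) were at hand for 26 of the genes, in 43 windows. Each line gives the bases just upstream of a start, 5′ to 3′ on the gene's strand, with capitals marking TGCCGC or its reverse GCGGCA, the core of the motif bound by Zfp57, a zinc finger protein that keeps imprints. These are Grb10 at chr11:12037421-12037670 (minus strand), Igf2 at chr7:142657497-142657746 (minus strand), Meg3 at chr12:109540746-109540995 (plus strand), Mest at chr6:30737800-30738049 (plus strand), and the run at chr7:6730432-6730577 between Peg3 and Usp29, printed on the plus strand, the strand of Usp29.
Grb10: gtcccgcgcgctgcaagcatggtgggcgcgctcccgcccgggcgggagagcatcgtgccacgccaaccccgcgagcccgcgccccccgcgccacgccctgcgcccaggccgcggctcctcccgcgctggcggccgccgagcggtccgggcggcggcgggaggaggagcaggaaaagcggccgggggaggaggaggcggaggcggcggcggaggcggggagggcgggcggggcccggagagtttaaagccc
Igf2: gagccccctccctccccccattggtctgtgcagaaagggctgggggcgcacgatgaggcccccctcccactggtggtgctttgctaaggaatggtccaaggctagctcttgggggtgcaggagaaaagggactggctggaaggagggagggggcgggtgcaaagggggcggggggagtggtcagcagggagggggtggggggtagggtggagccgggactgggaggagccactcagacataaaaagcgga
Meg3: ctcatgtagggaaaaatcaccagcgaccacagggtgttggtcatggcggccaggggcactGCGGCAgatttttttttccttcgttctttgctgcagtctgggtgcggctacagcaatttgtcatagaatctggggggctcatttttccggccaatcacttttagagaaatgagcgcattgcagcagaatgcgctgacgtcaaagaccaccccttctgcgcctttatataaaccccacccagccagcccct
Mest: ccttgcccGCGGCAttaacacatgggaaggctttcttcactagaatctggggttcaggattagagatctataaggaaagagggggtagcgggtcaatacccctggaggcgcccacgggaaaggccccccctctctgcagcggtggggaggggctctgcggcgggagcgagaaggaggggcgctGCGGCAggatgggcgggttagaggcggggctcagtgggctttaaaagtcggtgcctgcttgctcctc
Usp29: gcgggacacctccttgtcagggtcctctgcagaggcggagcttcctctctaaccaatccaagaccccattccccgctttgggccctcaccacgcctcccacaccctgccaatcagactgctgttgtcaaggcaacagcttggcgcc
The hexamer was found on either strand in 7 of the 43 windows (16.3%), those of Meg3, Mest, Nap1l5, Plagl1, Zdbf2 and Zim1, and in 8.68% of 32851 such windows of all genes. GGGGCCCC, a G-rich core bound by Plagl1 and its own reverse complement, was found in 1 window, that of Peg3, and in 0.889% of all windows. The counts of CG pairs were 40 in the Grb10 run, 14 in that of Mest, 10 in that of Meg3 and 6 in that of Igf2. Of runs of equal length, the one with the most CG pairs was printed. A second Grb10 run of 250 bases held 8 and a second Igf2 run of that length held 1. Over windows not picked in this way, the median was 8 for the 43 windows and 6 for all. Peg3 and Usp29 are transcribed in opposite directions, and the run printed lay within the windows of both. The motif matches describe letters only.

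The 32 genes spanned a wide range of levels. Over all kept cells 7 stood at 100 CPM or more, 14 between 10 and 100, 8 between 1 and 10, and 3 (Dlk1, Snrpn and Zim1) under 1 CPM; 27 reached 5 CPM in 1 of the pools. Compared per kilobase of exon, Mest, which encodes a hydrolase-like protein of mesoderm, led at 707.4 CPM per kb, and it ranked 18 by CPM among all genes. Nnat, a small membrane protein, followed at 98.8, then Grb10, an adaptor that restrains insulin and IGF receptor signalling, at 76.99. Gnas, the stimulatory G protein subunit, was at 64.9 and Ndn, a MAGE family protein, at 50.9 CPM per kb. The lowest value with over 100 reads was that of Zim1, 0.0810 CPM per kb.

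**Figure D1:**
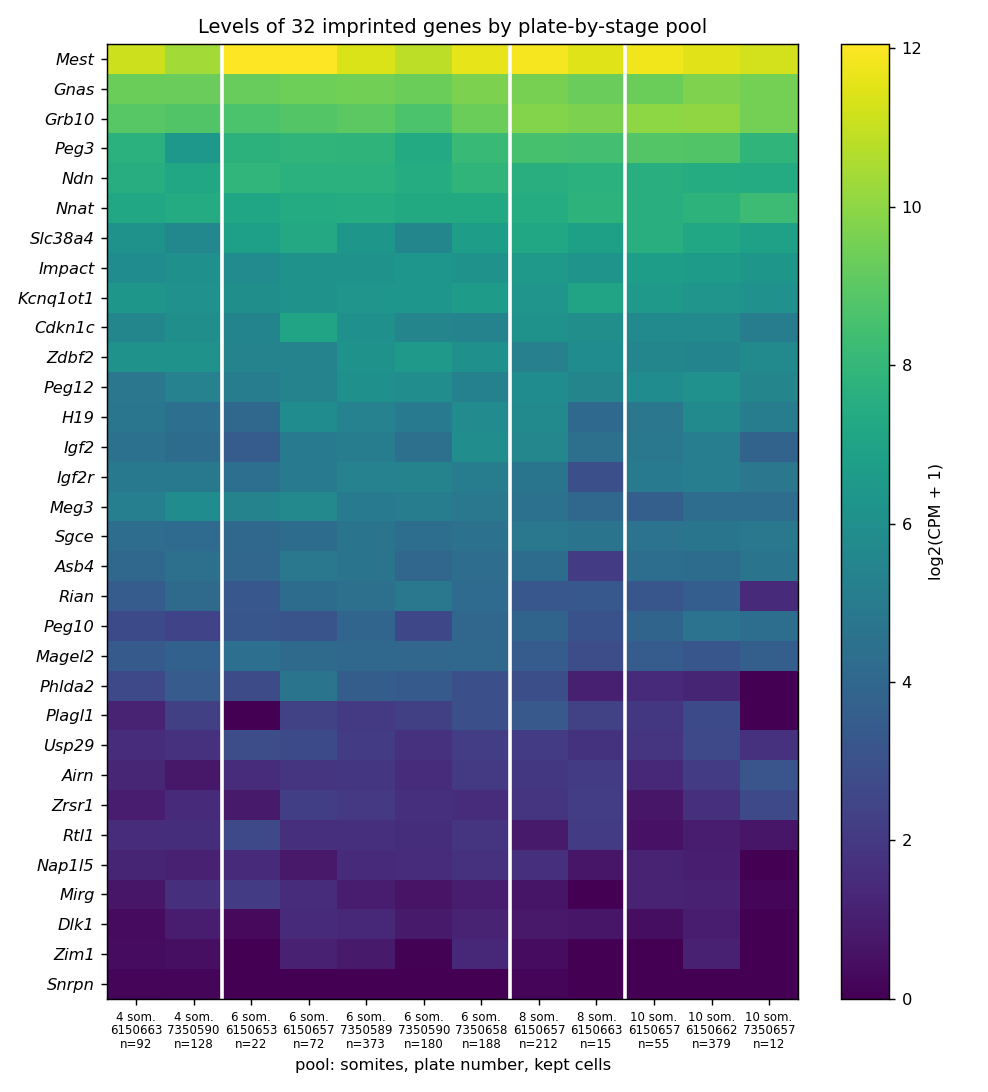
Level of each of the 32 genes, as log2(CPM + 1) by colour, in the 12 plate-by-stage pools; columns give somites, plate number and kept cells, and white lines part the stages. Mest is the brightest row throughout (1345 to 4247 CPM), Grb10 is brighter from 8 somites on, and Snrpn stays dark in every pool.

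The levels of some genes were carried by nearly all cells, those of others by few. After thinning each cell to 50000 reads, Mest was detected in 99.9% of 1722 cells, Gnas in 99.8%, Grb10 in 98.8% and Nnat in 95.01%. The 10% of cells with the highest CPM of each held 22.2%, 19.2%, 25.1% and 30.3% of its summed level. H19 was detected in 35.6% of cells, and 70.1% of its level lay in its top 10% of cells. Plagl1, which encodes a zinc finger transcription factor, was detected in 7.90% and had 97.8% of its level there. Igf2 (37.7% of cells), Cdkn1c (58.1%), which encodes a cell cycle inhibitor, and Magel2 (19.7%), a ubiquitin ligase partner, lay between, with 68.4%, 58.9% and 76.8% of the level in the top 10%.

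Within domains, genes differed widely in level. In the Dlk1-Meg3 domain on chromosome 12, the noncoding RNAs Meg3 (chr12:109541001-109571726) and Rian (chr12:109603940-109661716) were at 1.65 and 0.845 CPM per kb, while Mirg, Rtl1 and Dlk1, which encodes a Notch-like ligand, were at 0.145, 0.262 and 0.176. In the Prader-Willi region of chromosome 7, Ndn was at 50.9, Peg12 at 20.6 and Magel2 at 2.65 CPM per kb, and Snrpn had 28 reads in all. Snurf, which shares exons with Snrpn, had 0 reads, and no source used here says how reads in shared exons were assigned, so the Snrpn value is uncertain. Kcnq1ot1, a 93.1 kb transcript inside Kcnq1, was at 0.848 CPM per kb. Not scaled by length, it was at 78.9 CPM beside 0.188 CPM of Kcnq1. Igf2 shares 64.5% of its exon bases with the overlapping model Gm49394, and Mest shares 23.1% with Copg2 on the opposite strand.

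Between 4 and 6 somites, on the plate shared by these stages with 180 cells at 6, none of the tested imprinted genes differed 2-fold over all cells together. Of the 22 with at least 5 CPM in 1 of the pools, 0 were at least 2-fold higher and 0 lower, where of all 10093 genes tested 2.55% were higher and 1.65% lower. The median log2 ratio was 0.23 over the 22 and 0.03 over all genes. The difference nearest to the threshold was in Peg3, a zinc finger protein gene, from 85.4 to 165.6 CPM (log2 0.96, 95% interval 0.91 to 1.0). In the other direction it was in Meg3, from 56.6 to 32.6 CPM (log2 -0.80, -0.87 to -0.72). Within classes some did. In other cells H19 was at 1.66 and Peg3 at 1.36. In the 13 and 7 Sox10-positive cells 5 genes were past 2-fold, H19 (2.31), Asb4 (3.25), Zdbf2 (1.65), Peg10 (-2.35) and Phlda2 (-1.33). The share of all genes past 2-fold was not taken within classes, so these counts have no background, and 13 and 7 cells are few.

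From 6 to 8 somites, on the plate shared by 6, 8 and 10 somites with 72 cells at 6, 2 of 24 genes were at least 2-fold higher and 3 lower, beside 4% and 2.51% of 10117 genes. Grb10 was at 450.3 CPM at 6 and 915 at 8 somites (log2 1.02, 1.0 to 1.05), and Plagl1 at 3.95 and 9.405 (1.25, 0.98 to 1.54). Lower were Meg3, from 50.2 to 21.98 CPM (-1.19, -1.29 to -1.10), Rian, from 18.4 to 8.75 (-1.08, -1.23 to -0.92), and Phlda2, a pleckstrin domain protein gene that restrains placental growth, from 23.8 to 6.45 (-1.88, -2.04 to -1.73). Without the globin wells Phlda2 was at 6.97 and 4.83 CPM, a log2 ratio of -0.53, under the threshold, while the other 4 stayed past it and Plagl1 was at 3.30. That made 2 of 24 genes higher and 2 lower, beside 4.71% and 2.48% of 10088 genes. Sox10-positive cells were 37.5% and 54.7% of the pools, and in these cells alone Grb10 was at 1.07, Meg3 at -1.64, Rian at -1.30 and Phlda2 at -0.82, with Plagl1 under the minimum level. In other cells Grb10 was at 1.18, Plagl1 at 1.404 and Phlda2 at -1.47, but Meg3 at -0.49 and Rian at -0.63. Without the libraries of 9000 or more genes, 4 were higher (Peg10 2.09, Plagl1 2.78, Asb4 1.27 and Grb10 1.17) and 2 lower (Meg3 -1.09 and Usp29 -1.27), beside 5.89% and 2.98% of 10131 genes; Rian was at -0.90 and Phlda2, at 4.49 and 2.79 CPM, was under the minimum level.

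Between 8 and 10 somites, on the same plate with 55 cells at 10, 0 of 23 genes were at least 2-fold higher and 3 lower, beside 1.73% and 3.41% of 10047 genes. H19 went from 53.9 to 26.6 CPM (log2 -1.02, -1.12 to -0.91), Plagl1 from 9.405 to 2.92 (-1.68, -2.02 to -1.37) and Phlda2 from 6.45 to 1.79 (-1.84, -2.28 to -1.45). Over all plates, where stage and plate are not separated, H19 was nearly level, at 51.5 CPM at 8 somites and 46.9 at 10 (-0.13). In the largest pool of 10 somites, on another plate, H19 was at 49.8 CPM without the libraries of 9000 or more genes. Over all plates Plagl1 was at 9.07 and 4.87 CPM, also under 2-fold, and Phlda2 at 6.10 and 1.36, past it. On the shared plate without the globin wells Plagl1 (-1.63) was the 1 gene left past 2-fold: H19 was at 51.6 and 26.6 CPM (-0.95), and Phlda2, at 4.83 and 1.79, fell under the minimum level. That made 0 of 22 genes higher and 1 lower, beside 1.75% and 3.47% of 10049 genes. Of these cells 9 and 2 were Kdr-positive, the class in which H19 and Plagl1 were highest. Without Kdr-positive cells the count of genes past 2-fold stayed within 1.5 times of the 3 reported. For H19 the ratio was lower under all 15 alternative settings, this one among them, at -2.30 to -0.13, and past 2-fold in 9. How much of each ratio this class carried was not tested. In Sox10-positive cells alone 0 of 21 genes differed 2-fold, and H19 was at -0.75. The share of all genes was not taken in these cells. Without the libraries of 9000 or more genes 4 were lower: H19 (-1.09), Igf2 (-1.12), Plagl1 (-1.85) and Meg3 (-2.10), with 0 higher, beside 8.19% and 3.92% of 10106 genes, and Phlda2 was under the minimum level. The smaller 8 against 4 comparison, on the plate shared by those stages, rested on 15 cells of 8 somites, 13 of them libraries of 9000 or more genes. There Meg3 was at -1.22, Phlda2 at -2.25, Igf2r at -2.07 and Asb4, the gene of an ankyrin repeat protein, at -2.13. No share of all genes was taken for these calls. Leaving out the libraries of 9000 or more genes left 2 cells of 8 somites. In that set 2 of 22 genes were higher and 7 lower, beside 17.4% and 25.2% of 10135 genes.

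Grb10 and Meg3 kept apart the 7 pools of 4 and 6 somites from the 5 pools of 8 and 10 somites. This split was made after the values were seen. Only the plate shared by 6, 8 and 10 somites and that shared by 4 and 8 held pools from both groups. On the other plates stage and plate cannot be told apart. Grb10 (chr11:11930508-12038683, minus strand) stood at 484.9 and 441.9 CPM at 4 somites and at 397.8, 450.3, 524.1, 401.7 and 645.9 at 6. At 8 somites it was at 914.8 and 813.9, and at 10 at 1037, 1078 and 745.6. Each late pool was above each early pool, with a 2.03-fold difference of the medians. Meg3 stood at 36.2 and 56.6 CPM at 4 somites and at 40.4, 50.2, 30.8, 32.6 and 27.4 at 6. At 8 somites it was at 21.98 and 15.5, and at 10 at 11.7, 18.7 and 18.8. All late pools were thus below all early ones. Nnat was the only other of 27 tested genes whose groups did not overlap, at 140.2 to 172.6 CPM early and 174.8 to 305.8 late. The 2 higher genes (Grb10 and Nnat) and 1 lower (Meg3) stood beside 1.27% and 2.08% of 11307 genes.

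The order was also seen within Sox10-positive cells alone. Of 26 genes, 3 were higher in every late pool (Grb10, Nnat and Airn) and 2 lower (Meg3 and Phlda2), beside 1% and 0.855% of 11575 genes. In these cells Grb10 was at 261.1 to 637.95 CPM early and 735.7 to 1146 late, and Nnat at 87.7 to 155.5 and 171.5 to 297.6. Meg3 was at 19.99 to 47.8 early and 7.65 to 18.7 late, and Phlda2 at 4.14 to 27.7 and 0 to 3.10. Airn, the noncoding RNA that silences Igf2r, was low throughout, at 0 to 2.28 and 2.30 to 8.27 CPM, and its groups met almost without a gap. Among Sox2-positive cells, with 6 early and 3 late pools, Grb10 (372.5 to 530.4 and 802.05 to 966 CPM) and Sgce, a sarcoglycan gene (12.5 to 23.6 and 27.3 to 45.3), were higher in each late pool and Phlda2 (3.11 to 9.35 and 0 to 1.37) lower, 2 and 1 of 25 genes beside 5.23% and 4.74% of 11309. Meg3 and Nnat overlapped in these cells: Meg3 was at 34.6 to 65.01 CPM early and 12.3 to 40.3 late, and Nnat, with medians of 169.3 early and 146.2 late, was not higher in the late pools.

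**Figure D2:**
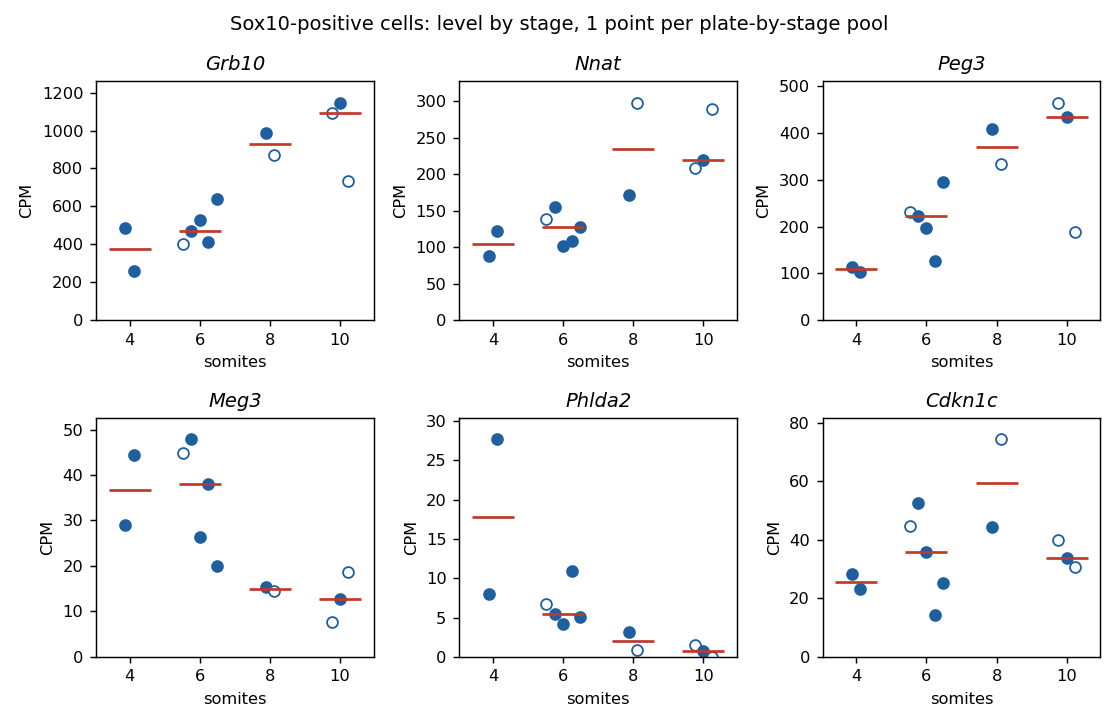
CPM (vertical axis, from 0) of 6 genes in the Sox10-positive cells of each of the 12 pools by somites (horizontal axis); red lines are medians of a stage, and open circles mark the 4 pools in which over 50% of libraries held 9000 or more genes. Grb10 and Nnat are higher and Meg3 and Phlda2 lower in every pool of 8 and 10 somites than in any of 4 and 6, while Peg3 and Cdkn1c overlap.

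Without the libraries of 9000 or more genes the early and late groups had 6 and 3 pools, and Grb10, Nnat and Meg3 again did not overlap. Over all kept cells 6 of 24 genes were then higher in each late pool (Peg3, Grb10, Nnat, Sgce, Impact and Slc38a4) and 2 lower (Meg3 and Phlda2), beside 8.02% and 7.52% of 10955 genes. In Sox10-positive cells it was 4 of 23 (Peg3, Grb10, Nnat and Impact) and the same 2, beside 5.98% and 3.73% of 11176 genes. Peg3 in those Sox10-positive cells was at 103.6 to 296.3 CPM early and 419.5 to 479.2 late, and Impact, a regulator of translation, at 62.8 to 93.6 and 101.4 to 114.3. Mest, Gnas and Ndn, the abundant genes left, overlapped between early and late pools in each of these sets.

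Sox10-positive cells stood past 2-fold from other cells of their pools in 3 of these genes, Peg10, Magel2 and H19. Over 9 pools with at least 5 cells of both classes, 1 of 22 genes was at least 2-fold higher by the median ratio and 2 lower, beside 2.61% and 7.48% of 10147 genes. The median log2 ratio was -0.21 over the 22 and -0.05 over all. Magel2, in Sox10-positive cells, was at 4.35 CPM in the lowest pool, 7.54 in the median and 10.8 in the highest, and in other cells at 8.73, 21.4 and 66.9. The ratio was lower in 8 of 9 pools, with a median log2 ratio of -1.55 (range -3.20 to 0.16).

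Peg10, a retrotransposon-derived gene, was at 3.26, 13.97 and 25.6 CPM in Sox10-positive and 3.01, 6.64 and 18.3 in other cells, higher in 7 of 9 pools (median log2 1.03, -0.54 to 2.50). The levels overlapped, and without the libraries of 9000 or more genes the median was 0.57. H19 was at 1.54, 13.6 and 26.2 CPM against 4.596, 24.4 and 68.5, lower in 7 of 9 pools (-1.08, -2.23 to 1.44). This direction turned with the cells compared: against Sox2-positive cells alone H19 was higher, at 0.51, and without the globin wells it was at -0.87, under 2-fold. Within other cells H19 stood at 9.78 CPM in Sox2-positive, 63.6 in Epcam-positive and 67.5 in the remaining cells.

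A few genes under the 2-fold threshold had the same sign in all 9 pools. Mest was at 1645, 3485 and 5749.7 CPM in Sox10-positive and 1291, 2186 and 2534 in other cells (median log2 0.73, 0.27 to 1.35). Slc38a4, an amino acid transporter gene, was at 76.2, 122.7 and 225.6 against 23.7, 60.02 and 121.9 (0.88, 0.20 to 3.24), and Impact was at 0.33 (0.14 to 1.87). Cdkn1c (chr7:143458339-143461050) was lower, at 14.4, 33.9 and 52.6 CPM against 33.96, 56.4 and 93.9 (-0.99, -1.76 to -0.18), and Peg12 at -0.22 (-1.17 to -0.01). The levels of these genes overlapped between classes across pools, while inside each pool the order held.

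Kdr-positive cells had 8 of these genes past 2-fold, against 3 for Sox10-positive cells; the difference between the counts was not tested. Over 7 pools, 6 of 24 genes were at least 2-fold higher than in other cells (H19, Igf2, Plagl1, Usp29, Slc38a4 and Asb4) and 2 lower (Magel2 and Phlda2), beside 7.91% and 10.3% of 10428 genes. Over all cells of a class, Plagl1 (36.9 against 2.54 CPM) and Usp29 (7.41 against 2.66) reached 5 CPM only in Kdr-positive cells. Magel2 (4.52 against 18.3) and Phlda2 (3.89 against 8.87) reached it only in other cells. The minimum level thus left these genes little room for the opposite call. The median log2 ratio was 0.21 over the 24 and -0.11 over all. Without the libraries of 9000 or more genes the same 8 genes were past the threshold, beside 7.91% and 10.4% of 10433 genes. Endothelial and head mesoderm markers move with this class, and their part in the differences was not tested.

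Both genes of the Igf2-H19 domain were high in Kdr-positive cells of every pool. H19 (chr7:142575529-142578143, minus strand) was at 120.9 CPM in the lowest of the 7 pools, 242.8 in the median and 346.4 in the highest, and in other cells at 4.596, 24.4 and 68.5. Igf2 (chr7:142650766-142666816, minus strand) was at 101.97, 178.9 and 336.1 CPM, and in other cells at 9.38, 19.5 and 55.8. For both genes the lowest Kdr-positive pool lay above the highest pool of other cells. The median log2 ratios were 3.12 for H19 (2.31 to 5.17) and 3.13 for Igf2 (2.20 to 3.62). In thinned cells H19 was detected in 83.9% of Kdr-positive cells (95% exact binomial interval 76.2% to 89.9%) and in 19.2% of 790 other cells (16.5% to 22.2%), with median depths of 358358 and 384453 reads; these intervals count cells and not pools or embryos. H19 was also higher than in Sox10-positive, Sox2-positive and remaining cells in 7 of 7 pools each, with median log2 ratios of 3.89, 4.55 and 2.05.

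**Figure D3:**
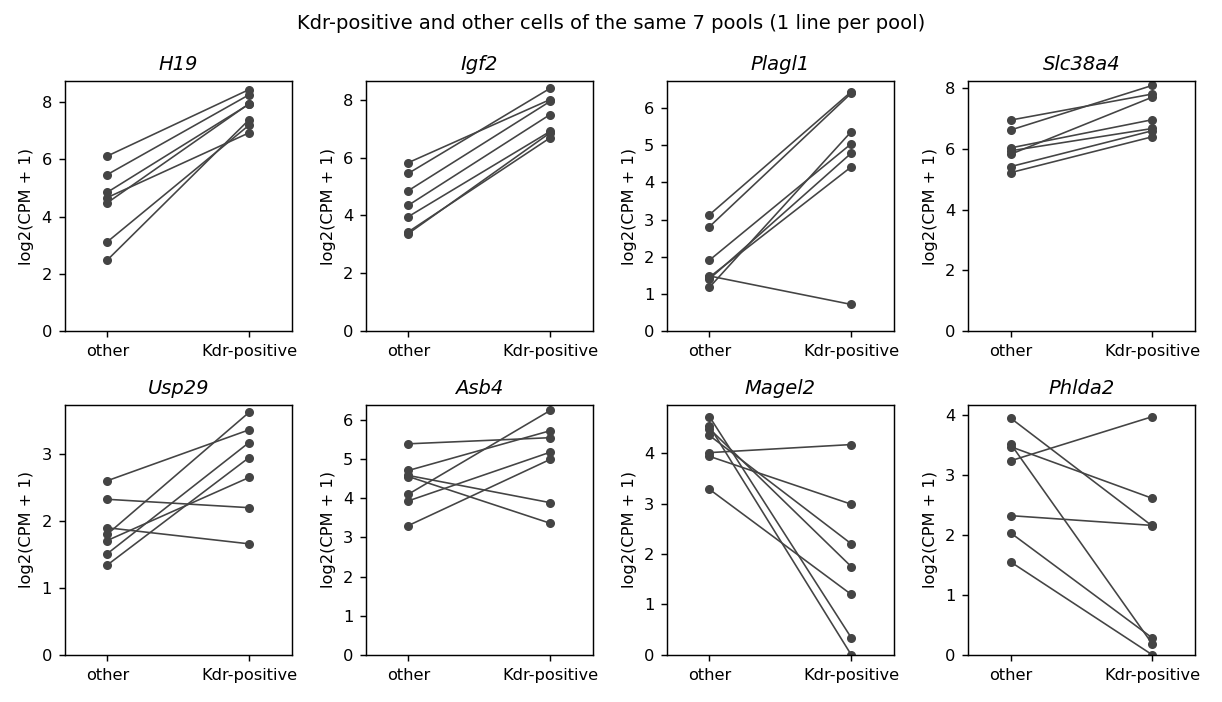
Level as log2(CPM + 1) of the 8 genes at least 2-fold apart, in other cells and Kdr-positive cells; each line joins both classes of 1 of 7 pools. H19, Igf2 and Slc38a4 go up in all 7 lines, Plagl1 in 6, and Magel2 and Phlda2 go down in 6.

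The remaining higher genes varied more among pools. Plagl1 (chr10:13060504-13131694) was at 0.647, 31.96 and 85.96 CPM in Kdr-positive and 1.27, 1.80 and 7.78 in other cells (median log2 3.55, -1.27 to 4.99); the exception among 7 pools was the smaller pool of 4 somites. Slc38a4 was at 83.1, 123.005 and 270.1 against 36.1, 60.02 and 121.9 (1.20, 0.75 to 1.90), higher in 7 of 7 pools. Usp29, the gene of a deubiquitinase, was at 2.15, 6.69 and 11.3 against 1.53, 2.48 and 5.05 CPM (1.24, -0.29 to 2.19), and Asb4 at 9.28, 35.2 and 74.7 against 8.88, 22.5 and 40.97 (1.04, -1.27 to 2.21). Both were higher in 5 of 7 pools, and their levels overlapped. Magel2 was at 0, 2.36 and 17 CPM against 8.73, 19.4 and 25.4 (-2.64, -6.26 to 0.18), lower in 6 of 7 pools. Phlda2 was at 0, 3.42 and 14.6 against 1.92, 8.38 and 14.4 (-1.85, -5.71 to 0.81), also lower in 6. In the pool of 8 somites both had 0 reads in 9 Kdr-positive cells, and that ratio is a bound set at 3 reads.

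Under the threshold, Gnas, Grb10 and Meg3 had the same sign in all 7 pools. Gnas was at 909.6, 1231 and 1348 CPM in Kdr-positive and 599.5, 649.3 and 915 in other cells (0.78, 0.54 to 0.92). Meg3 was at 15.7, 18.7 and 23.7 against 33.8, 36.6 and 60.95 (-0.97, -1.45 to -0.75), and its classes did not overlap. Grb10 was at 0.60 (0.01 to 0.81). The most abundant gene, Mest, was at 0.12 (-0.56 to 0.95), higher in 4 of 7 pools.

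**Figure D4:**
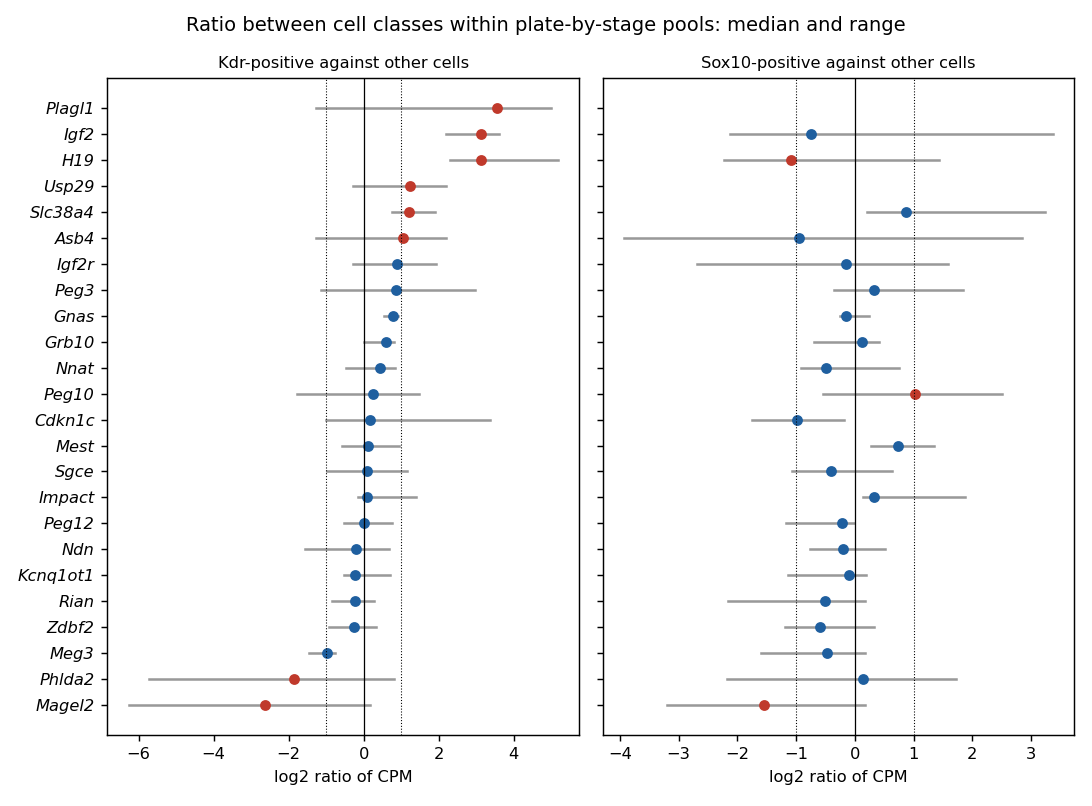
Log2 ratio of CPM (horizontal axis) of the 24 genes tested in Kdr-positive cells (left) and the same genes in Sox10-positive cells (right), both against other cells of the same pool; points are medians over 7 and 9 pools, lines the range, dotted lines 2-fold, and red points lie past it. Plagl1, Igf2 and H19 stand over 3 on the left, while on the right Plagl1 and Usp29 were under the minimum level and the other medians lie between -1.55 and 1.03.

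The Kdr-positive cells were not uniform. Split after the values were seen by Emcn, an endothelial surface protein gene, at 10 CPM, 59 cells were above and 65 below. The endothelial cadherin gene Cdh5 was at 81.5 CPM above and 0.602 below, and Tie1 at 135.9 and 2.03. Other endothelial markers were lower below but not absent: Etv2 at 173.6 and 62.3, Flt1 at 476.4 and 29.6, Tal1 at 187.8 and 22.8, and Pecam1 at 92.5 and 7.63. In other cells Etv2 was at 0.752 CPM, Flt1 at 0.556, Tal1 at 0.337 and Pecam1 at 0.381. In the cells above, H19 was at 302.7 CPM, Igf2 at 285.7, Plagl1 at 74.8 and Mest at 3969.7, and in the cells below at 167.3, 118.9, 6.65 and 1201. Peg3 and Magel2 went the other way, at 248.7 and 0.803 CPM above and 609.4 and 7.48 below. Of the mesoderm genes taken in this split, which left out Tbx1 and Prrx2, Foxc2 (91.02 against 55.3 CPM) and Prrx1 (28.2 against 10.6) were higher in cells below the Emcn threshold. Foxc1 (38.4 against 36.3 CPM) was nearly equal, and Twist1 (10.6 against 11.6) was slightly lower in them. Against other cells of their pools the cells below were still higher for H19 and Igf2, while Plagl1 was at a median log2 ratio of -0.14.

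Over cells, H19 and Igf2 had the highest correlation of any pair of the 22 genes at 5 CPM or more. Spearman's rho of log2(CPM + 1), centred on the pool mean, was 0.55 for H19 and Igf2 over 1728 cells, rank 1. It was also rank 1 in Kdr-positive (0.62), Sox10-positive (0.29) and Sox2-positive cells (0.37). These are descriptions over cells that share pool and library depth, with no test. The 11 pairs within 1 domain had a median rho of 0.14 and the 220 other pairs 0.04. Meg3 and Rian were at 0.21, Peg12 and Ndn at 0.20 and Peg10 and Asb4 at 0.18, while Phlda2 and Kcnq1ot1, the noncoding RNA that silences its domain in cis, were at -0.08. Of pairs from different domains, Igf2 and Gnas (0.36) and H19 and Gnas (0.35) were the next closest over all cells.

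**Figure D5:**
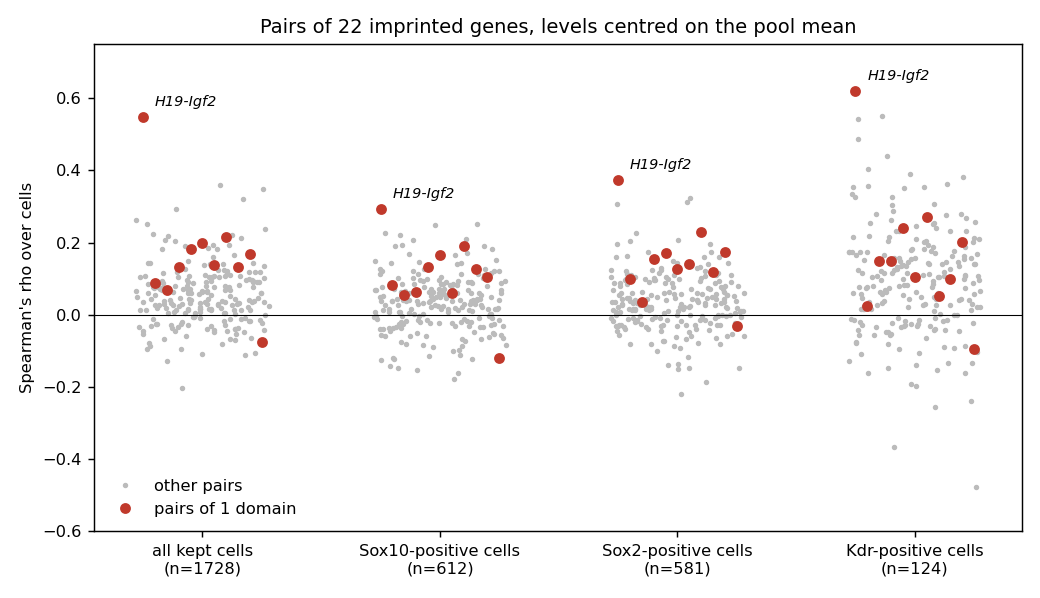
Spearman's rho over cells (vertical axis) of all pairs of 22 genes in 4 sets of cells; red points are the 11 pairs of 1 domain, grey points the 220 others, spread sideways for sight only. H19 and Igf2 are the highest point in each set, from 0.29 in Sox10-positive to 0.62 in Kdr-positive cells.

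Partners of the imprinted genes were described by 3 lists. Of 12 genes of the IGF axis, 3 were at least 2-fold higher and 2 lower in Kdr-positive than in other cells, beside the 7.91% and 10.3% of all genes, with a median log2 ratio of -0.29 beside -0.11 over all genes. Among those with 20 CPM in 1 pool, the binding protein genes Igfbp4 (2.76) and Igfbp3 (1.59) were higher and Igfbp5 (-2.68) lower. In Sox10-positive cells Igfbp5 (-3.55) and Igfbp2 (-1.77) were the 2 lower of 11, beside 7.48% of all genes. In the stage steps 1 of 11 was past 2-fold each time. Igfbp5 (1.26) was higher at 6 against 4, beside 2.55% of all genes, and the adaptor gene Irs1 (1.403) at 8 against 6, beside 4%. Irs2 (-1.12) was lower at 10 against 8, beside 3.41%. Of 13 factors that keep imprints, such as Trim28, Dnmt1 and Zfp445, 12 were tested. In the stage steps 0 of them differed 2-fold, where 1.65% to 4% of all genes were called by step and direction. In Sox10-positive cells 0 did, beside 2.61% higher and 7.48% lower of all genes. In Kdr-positive cells 1 was higher and 0 lower, beside 7.91% and 10.3%. With 12 genes, counts this small are near those shares. Dnmt3b, a de novo methyltransferase, had log2 ratios of -0.39, -0.69 and -0.24 in the 3 steps. Of 36 other imprinted genes 22 were tested in Kdr-positive cells, where 5 were higher and 2 lower, again beside 7.91% and 10.3%, among them Peg13 (1.82), the tetraspanin gene Cd81 (1.44) and the chloride channel gene Ano1 (-2.67). In Sox10-positive cells 0 of 21 were higher and 3 lower, Ppp1r9a (-1.10) among them, beside 2.61% and 7.48% of all genes. In the stage steps 1 of 19, 3 of 20 and 0 of 20 of these were higher, beside 2.55%, 4% and 1.73% of all genes, and 0 lower, Peg13 (1.395) and Pon2 (1.06) being 2 of the 3 at 8 against 6 somites.

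Igf2r, Kcnq1ot1 and Zdbf2 were tested in each stage step and class comparison and, over all cells of a pool or against other cells, passed 2-fold once, Igf2r in the 15 cells of 8 somites. Set against Sox10-positive cells, Kdr-positive cells had more Igf2r in 7 of 7 pools, with a median log2 ratio of 1.55 (0.93 to 3.64). Zim1, Dlk1, Rtl1, Mirg, Nap1l5, Zrsr1 and Snrpn were under the minimum level in the class comparisons, where together with Airn they were left untested. Zim1 was at 2.85 CPM in Kdr-positive and 0.0299 in Sox2-positive cells, the latter from 7 reads.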

How the data were processed

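The authors deposited 1 table of raw read counts per gene and cell, whole numbers without molecular identifiers. Per the submitters' processing notes, bcl2fastq 2.18 and STAR 2.6 were used, with mm10 as the genome. No source used here gives the counter, the annotation, strand use or the treatment of reads with several positions. Stages came from the labels. The number in each title was taken as a plate, which the labels do not state.

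Cells with at least 50000 reads on genes and 1500 detected genes were kept (1728 of 1778). Totals leave out 92 spike-ins and Rn45s, with a median of 387020 reads per cell (10736 to 1007751). Reads were summed per pool, 0.5 reads were added for ratios, and a gene was tested with at least 5 CPM in 1 of the pools. A difference was called at 2-fold or more. Ratios in which neither side had over 3 reads were left out, and a sum of 0 was replaced by 3 reads, which makes the ratio a bound. Intervals are 95% exact Poisson, conditional binomial for ratios. Named were the genes called in any comparison, the rest by range. Of the other lists, at most 3 genes with 20 CPM in 1 pool were named. No doublet caller was run. Locations and exon lengths are GENCODE vM21 models on mm10, matched by symbol. The code was tested on simulated data. pandas 2.3.3, edgeR 4.0.16 and DESeq2 1.42.0 were used, the last 2 for scaling factors only. The members and lists were chosen with earlier results of these data known.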

Additional observations from a re-analysis of the deposited data

Results flagged for a closer look

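At 6 somites 3 of 25 genes had 1 of the 5 pools far from the others, beside 5.98% of 10686 genes and the 1 in 20 that chance gives. Cdkn1c was at 129.8 CPM in the 72-cell pool and at 41.6 to 64.9 in the others, and Phlda2 at 23.8 in the same pool and 5.97 to 10.9 in the others. This pool held 12 of the 22 wells with embryonic globin, in which Cdkn1c was at 339.4 and Phlda2 at 80.2 CPM, and without them its levels were 57.9 and 6.97 CPM. Rtl1 was at 5.38 CPM in the smallest pool of the stage, where 18 of 22 libraries held 9000 or more genes, and at 1.98 to 2.54 in the others.

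The ratio of Ndn between Kdr-positive and other cells had opposite signs at neighbouring stages, 1 of 90 such pairs looked at. At 4 somites its median log2 ratio was 0.61 (0.52 to 0.69 over 2 pools) and at 6 somites -0.20 (-0.46 to -0.00 over 3 pools). The highest of the 3 pools of 6 somites, at -0.0035, was almost level. No share of all genes was taken for such pairs, and the difference was not tested.

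The cells past both class thresholds, in no comparison above, held 58.2 CPM of H19, 45.3 of Igf2 and 7.31 of Plagl1. They are given because these cells were left out, and no difference is read from them. Of these cells 53.3% were libraries of 9000 or more genes, and in the other 92 the values were 31.5, 28.03 and 1.57 CPM.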

How the results depend on the processing

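Counts of genes at least 2-fold apart moved over 1.5 times under these settings. For 6 against 4 somites, 0 as reported, they were 1 with Rn45s in the total, 4 with no minimum CPM, 1 over all plates, 5 in Sox10-positive cells, 2 in other cells and 2 without Kdr-positive cells. For 8 against 6, 5 as reported, they were 10 with no minimum, 3 at 20 CPM, 2 over all plates, 3 in Sox10-positive and 9 in other cells. For 10 against 8, 3 as reported, they were 7 with no minimum, 1 at 20 CPM, 1 over all plates, 0 in Sox10-positive and 12 in other cells, and 1 without globin cells. The 12 rest on 5 other cells at 10 somites. For Sox10-positive cells, 3 as reported, they were 5 as a mean of CPM per cell, 10 with no minimum, 1 at 20 CPM and 6 in 1 pool. For Kdr-positive cells, 8 as reported, they were 13 with no minimum, 5 at 20 CPM and 5 without the plate shared by 4 and 6 somites. Fewer genes are tested at 20 CPM and more with no minimum, and the other causes were not tested. Apart from the setting without globin wells, no share of all genes was taken at these settings, so these counts have no background.

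H19 (2.19 to 4.55) and Igf2 (2.38 to 3.86) stayed over 2-fold in Kdr-positive cells under all 25 alternatives, and Magel2 in Sox10-positive cells (-1.70 to -1.33) under all 22. Signs turned for H19 in Sox10-positive against Sox2-positive cells (0.51), Plagl1 in Kdr-positive cells with Emcn under 10 CPM (-0.14) and Phlda2 with cells past both thresholds counted as Kdr-positive (0.51). TMM and DESeq2 factors moved the median of all genes by at most 0.07. Ratios were taken within a plate or a pool; beyond that, no paired analysis was possible because no label pairs samples and no test was fitted. The pools of 12, 15 and 22 cells and the 9 and 2 Kdr-positive cells of 8 and 10 somites on the plate shared with 6 are few and limit precision.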
